A study of Mus musculus with 8 samples.

Results

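DC-only regions are stretches of the genome where a C/EBPα peak was called in both DC libraries and in neither WT nor DE library. Peaks from the 6 deposited lists were joined wherever they shared at least 1 bp, and 1468 of 249466 autosomal regions had this pattern (0.588%). The same pattern held for 531 regions in WT (0.213%) and 280 in DE (0.112%). The regions were chosen by their calls in all 6 libraries, so the calls, the heights in DC and their absence elsewhere are given here as descriptions, without a test. They are named by call and not by binding, because a missing call sets only an upper limit on the signal.

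The cells were Lin- KIT hi-int FLT3+ progenitors sorted from mouse bone marrow, with the WT, DC or DE form of the Zeb2 -165 kb enhancer. Each genotype had 2 anti-C/EBPα CUT&RUN libraries, replicate 1 from batch 1 and replicate 2 from batch 2. CUT&RUN releases the DNA beside an antibody-bound protein with a tethered nuclease. The labels do not spell out the DC and DE alleles, give no age or sex, and do not say whether the replicates came from separate animals. All groups share the tissue, the sort gate and the kit. IgG libraries of WT cells were not analysed here, and expression was not measured, so the sorted cell type could not be checked against its markers.

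C/EBPα is a basic leucine zipper factor that binds palindromic DNA as a dimer and drives granulocyte and monocyte commitment from bone marrow progenitors. Zeb2 is a zinc-finger repressor with roles in dendritic cell and myeloid fate, and C/EBP factors are among the proteins that can bind its distal enhancers. A sequence-specific factor typically occupies some sites strongly in every preparation and many others weakly, and the weak sites enter a peak list or miss it as depth and background vary.

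Promoters give the only sequence context available for these regions. Of the 1468 regions, 50 (3.41%) overlapped a RefSeq promoter window of build GRCm38.p6, which runs from 250 bases before to 50 bases after an annotated start. Of the regions called in all 6 libraries, 18.8% did so. The share over all autosomal regions is not given here. The 50 DC-only regions touched 56 windows of 54 genes. The following are the overlapped bases before the start, read 5′ to 3′ on the strand of the gene. The first 4 hold a motif letter string in that stretch, Disp1 is the overlapped promoter whose region ranked best, and Gm38708 starts within Gata2. All coordinates are 1-based on mm10 (GRCm38). Capitals mark a match to TTGCNNAA on either strand, shown as the reverse complement where it lies on the other, or to TGATGCAA, a composite letter string of C/EBP with ATF proteins.
Prdm11 upstream: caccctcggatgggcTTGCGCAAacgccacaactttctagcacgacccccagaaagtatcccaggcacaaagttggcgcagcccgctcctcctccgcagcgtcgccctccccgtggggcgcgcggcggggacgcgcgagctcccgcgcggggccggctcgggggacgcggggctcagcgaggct
Gm32403 upstream: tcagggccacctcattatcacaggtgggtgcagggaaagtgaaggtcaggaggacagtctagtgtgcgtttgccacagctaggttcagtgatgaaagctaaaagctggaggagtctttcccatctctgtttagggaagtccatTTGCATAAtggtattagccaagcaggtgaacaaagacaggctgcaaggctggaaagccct
Gm51474 upstream: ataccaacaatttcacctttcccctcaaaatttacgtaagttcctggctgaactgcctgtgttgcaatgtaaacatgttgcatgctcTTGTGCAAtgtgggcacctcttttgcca
1700120K04Rik upstream: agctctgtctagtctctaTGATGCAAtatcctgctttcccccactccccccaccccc
Disp1 upstream: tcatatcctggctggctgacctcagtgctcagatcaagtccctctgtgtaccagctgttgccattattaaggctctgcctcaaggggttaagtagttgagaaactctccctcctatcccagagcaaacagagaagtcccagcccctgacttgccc
Gm38708 upstream: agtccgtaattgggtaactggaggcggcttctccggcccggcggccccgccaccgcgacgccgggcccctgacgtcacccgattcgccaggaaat

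The Prdm11 stretch is chr2:93046232-93046415 (minus strand) and holds the full palindrome TTGCGCAA. Its region had a summit pileup, the number of fragments over the highest point of a peak, of 8 in DC replicate 1 and 7 in DC replicate 2. Prdm11 belongs to the PR domain family of chromatin proteins. Both values are at or below the medians of all DC-only regions, given below.

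The Gm32403 stretch is chr6:51207399-51207601 (minus strand), with pileups of 15 and 6 in DC replicates 1 and 2. Gm51474 is chr7:26055279-26055393 (plus strand), with pileups of 11 and 9. The stretch of 1700120K04Rik is chr7:127604446-127604502 (minus strand), with 27 and 11. All 3 are long noncoding RNA genes, and 1700120K04Rik had the taller peak in each replicate.

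Disp1, which encodes a protein that releases lipid-modified Hedgehog ligands, gave pileups of 24 and 8 over chr1:183147558-183147712 (minus strand). Gm38708 is a noncoding gene whose start, chr6:88197438-88197532 (minus strand), lies in Gata2, with pileups of 12 and 7. Neither stretch holds one of the searched letter strings, although the Disp1 region was taller in DC replicate 1 than those of Prdm11, Gm32403 and Gm51474.

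Across the 56 windows, counted whole and on both strands, 7 (12.5%) held TTGCNNAA. The string was present in 10.9% of 31396 autosomal promoter windows of the same length and in 12.0% of the 5618 windows overlapped by a region called in all 6 libraries. The palindrome TTGCGCAA, which is contained in TTGCNNAA, occurred in 1 window (1.79%) against 0.178% of all windows and 0.730% of those shared by all libraries. TGATGCAA occurred in 2 (3.57%) against 0.828% and 0.730%. The share with the general C/EBP string was thus close to that of all promoters, and the counts for the other strings rest on 1 and 2 windows. Median GC content was 55.2% in the 56 windows, between 53% over all windows and 61% in the windows of regions called in all libraries. A letter match is a description of these windows, not a measured site.

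DC-only regions were lower than the regions called in all libraries. The median summit pileup was 14 fragments in DC replicate 1 (5th to 95th percentile 6 to 32.65) and 8 in DC replicate 2 (4 to 15). Regions called in all 6 libraries had medians of 58 and 24 in the same libraries. DC-only regions were also narrower, with a median width of 183 bp against 435 bp.

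The authors' fold enrichment over local background had medians of 6.16 and 5.46 in DC replicates 1 and 2 for the DC-only regions, against 20.8 and 12.0 for regions called everywhere. The deposited −log10 q had medians of 7.06 and 4.83, against 62.2 and 22.3. By −log10 q, the median DC-only peak stood at percentile 29.6 from the top of the list of DC replicate 1 and at percentile 69.2 of the list of DC replicate 2. The lists differ in length, so the percentiles are not compared with each other.

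The DC replicates ranked these regions loosely. Across the 1468 regions the Spearman correlation of pileup between DC replicates 1 and 2 was 0.367, and across 23028 autosomal regions called in all 6 libraries it was 0.803. Regions are not independent replicates, and restricting a set to low values narrows its range. The summits of the DC replicates were a median of 31 bp apart, against 22 bp in the shared regions. At 10 or more fragments in both DC libraries stood 367 regions (25%), at 15 or more 72 (4.90%), at 20 or more 17 (1.16%) and at 30 or more 4 (0.272%).

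**Figure D1:**
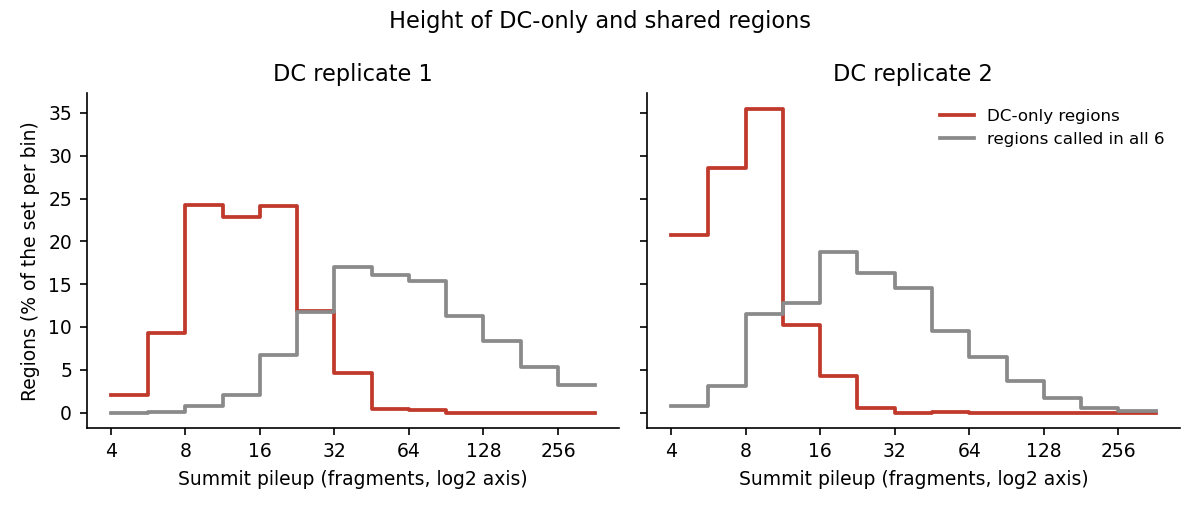
Distribution of summit pileup (fragments, log2 axis) in DC replicates 1 and 2 for DC-only regions (red) and autosomal regions called in all 6 libraries (grey), as percent of each set per bin, with the few pileups outside the plotted bins left out. The DC-only curve lies to the left in both panels, with medians of 14 and 8 against 58 and 24.

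The edges of the rule were thin. The smallest −log10 q of a DC-only region was 1.04 in DC replicate 1 and 1.03 in DC replicate 2, at the authors' limit. Of 35516 autosomal regions called in both DC libraries, 2291 (6.45%) had 1 further call in a WT or DE library, and 1468 (4.13%) had none. Of those with 1 further call, 1064 had it in DE replicate 2, 524 in WT replicate 2, 389 in DE replicate 1 and 314 in WT replicate 1. The single calls were low, with median pileups of 10, 11, 14 and 12 in that order of libraries. The weakest of them had a −log10 q of 1.09. Regions with 2, 3 and 4 further calls numbered 3569, 5160 and 23028.

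The 15 regions that stood highest in both DC lists had no gene of the cell type lists described below within 10 kb. Only 12 listed genes had any of the 1468 regions that near, so this absence is not a result about the top 15. At the top was a region inside Dnah6, an axonemal dynein heavy chain of motile cilia, at chr6:73084748-73084992, with 71 fragments in DC replicate 1 and 30 in DC replicate 2. The summits of its peaks were at the same base. Scaled to the other libraries by the regions that all share, these heights would be 43.4 fragments in WT replicate 1, 43.8 in WT replicate 2, 52.4 in DE replicate 1 and 40.7 in DE replicate 2, where 6, 5, 7 and 4 were enough for a call at the lowest background. No pileup is listed where no peak was called, so no fold between genotypes can be given. Whether a position lies in an exon or intron was not determined, because the gene table gives only gene ends.

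Clptm1, a transmembrane protein gene named for a cleft lip locus, had a region 0.291 kb from its end at chr7:19631145-19631289. Its unscaled pileups of 68 and 63 were nearly equal. At the other 14 of these regions the unscaled pileup was well below replicate 1 in DC replicate 2. Scaled by the regions that all libraries share, Clptm1 had 42.3 and 97.5 in DC replicates 1 and 2. At the other 14 the scaled order varied, as with 44.2 and 46.4 at Dnah6 and 47.3 and 35.6 at Onecut1. The local background at Clptm1 was 1.76 in DC replicate 1 and 2.59 in DC replicate 2, the latter above 5 times the lowest background of that library. Onecut1, a transcription factor of liver and pancreas, lay 30.9 kb from a region at chr9:74920560-74920748 with 76 and 23 fragments. Pard3, a scaffold of cell polarity, lay 103 kb from a region with 55 and 28 fragments at chr8:127715192-127715350.

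The remaining regions of the top 15 ranged from 35 to 64 fragments in DC replicate 1 and from 14 to 25 in DC replicate 2, apart from 1 beside Alkbh8. Inside Ube2cbp the pileups were 64 and 25 (chr9:86355858-86356136), and inside Rtn4rl2, a receptor of the Nogo receptor family, 45 and 15 (chr2:84882723-84883040). Bhlhe41, a basic helix-loop-helix repressor linked to the circadian clock, was 3.75 kb from a region with 39 and 21 fragments (chr6:145854344-145854491). Rasgrf1, a guanine nucleotide exchange factor for Ras, held a region with 45 and 14. In each of these 4 regions the unscaled pileup was higher in DC replicate 1. Scaled by the regions that all libraries share, DC replicate 2 was the higher at Bhlhe41 (24.3 and 32.5). DC replicate 1 stayed the higher at Ube2cbp, Rtn4rl2 and Rasgrf1.

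Inside Jmjd1c, a member of the histone demethylase family, the pileups were 37 and 17, and inside Dip2a 35 and 20. Inside Myo5c, a class V myosin, they were 36 and 17, and inside Acvr1c, an activin receptor-like kinase, 35 and 17. Trpm3, a cation channel gene, was 130 kb from a region with 40 and 18, and Bnc1, a zinc-finger gene of epithelia, 64.7 kb from one with 36 and 14. Distances of this size place a region near a gene only by order along the chromosome.

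The region nearest Alkbh8, a tRNA methyltransferase gene 332 kb away, was of another kind. At chr9:3003365-3003501 the pileup was 3332 in DC replicate 1 and 993 in DC replicate 2, over local backgrounds of 2498 and 742, so that the fold was only 1.33 and 1.34. It entered the top 15 by the size of its counts and not by its enrichment. In all, 59 DC-only regions had a local background above 5 times the lowest of the library in at least 1 DC library, and without them 1409 remained.

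Among regions within 1 kb of a gene end, the 5 next in rank lay at Sh3bgr, Hmgb1, Mief2, Gm6729 and Dap. Sh3bgr gave 57 and 13 fragments at chr16:96200662-96200781, the widest gap between the DC replicates of these 5. Hmgb1, a chromatin protein that also acts as an alarm signal outside the cell, gave 31 and 19 at chr5:149052117-149052309. Mief2, a factor of mitochondrial dynamics, gave 29 and 11, Gm6729 28 and 13, and Dap, a gene linked to cell death and autophagy, 30 and 10. Each of the 5 had the lower unscaled pileup in DC replicate 2. Scaled by the regions that all libraries share, DC replicate 2 was the higher at Hmgb1 (19.3 and 29.4) and Gm6729 (17.4 and 20.1). It was the lower at Sh3bgr, Mief2 and Dap.

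**Figure D2:**
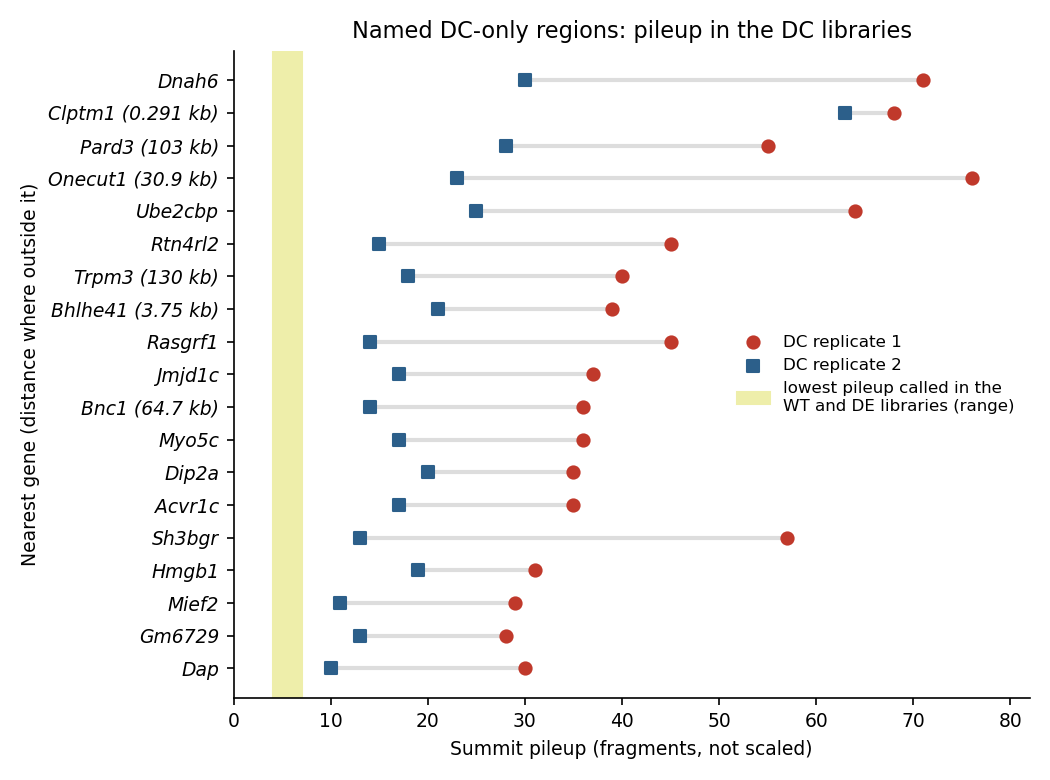
Summit pileup (fragments, not scaled) of the named DC-only regions in DC replicate 1 (circles) and DC replicate 2 (squares), by nearest gene, with the distance where the region lies outside it. Alkbh8, at 3332 and 993, is left out, and the shaded band spans the lowest pileups called in the WT and DE libraries, 4 to 7, which lies to the left of all points.

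The genes near DC-only regions were counted on 13 lists of cell types and regulators, which include non-haematopoietic and housekeeping genes. Of 189 autosomal genes on them, 12 (6.35%) had a DC-only region within 10 kb, against 1299 of 20661 autosomal protein-coding genes (6.29%). Within 1 kb the shares were 8 listed genes (4.23%) and 3.93% of all genes. Within 50 kb they were 39 listed genes (20.6%) and 14.2%. The listed share was thus close to that of all genes at 1 and 10 kb and above it at 50 kb, and no test between them was made.

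Among neutrophil and monocyte genes, the lineages that C/EBPα drives, 1 of 31 had such a region. That gene was Csf1r, the receptor for macrophage colony-stimulating factor, with 16 and 10 fragments in DC replicates 1 and 2 over chr18:61127604-61127796 inside the gene. Within 50 kb, 9 of the 31 had a DC-only region, against 14.2% of all autosomal protein-coding genes. No test was made on this short list. A count of 1 of 31 is near the share over all genes (6.29%) and is not a result about the list. A region called in all 6 libraries lay within 10 kb of 29 of the 31. The same held for 13 of 13 housekeeping genes, 17 of 20 stem and progenitor genes and 4 of 20 non-haematopoietic genes. The share over all genes is not given here, so these counts are not a result about any list. No gene of the C/EBP family list (0 of 7) or of the Zeb2 circuit list (0 of 13) had a DC-only region within 10 kb.

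In the Zeb2 locus itself, from 300 kb beyond the gene end on the enhancer side to 50 kb beyond the other end, there was no DC-only region. The nearest one lay 6030 kb from the position of the -165 kb enhancer, measured from that gene end. How often a window of this size holds a DC-only region was not counted. The absence is therefore not a result about the locus. Of the dendritic cell lists, 0 of 15 cDC1 genes, 0 of 13 cDC2 genes and 2 of 14 pDC genes were within 10 kb of one, and 1, 3 and 3 were within 50 kb. Lists of this size are too short to be set apart from the shares of all genes, 6.29% within 10 kb and 14.2% within 50 kb. Tlr9, an endosomal sensor of DNA, was 6.98 kb from a region with 14 and 5 fragments, and Ly6d, a surface antigen of lymphoid progenitors, 5.69 kb from a region with 9 and 6.

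Stem and progenitor genes had 4 of 20 (20%), all with the region inside the gene, against 6.29% of all autosomal protein-coding genes. No test between them was made on this short list. The region in Etv6, an ETS repressor needed by blood stem cells, was the tallest, with 27 and 7 fragments at chr6:134117753-134118072. Gata2, a zinc-finger factor of stem and progenitor cells, had 12 and 7 at chr6:88197438-88197532, the stretch printed above as Gm38708. Erg, another ETS factor, had 8 and 6 at chr16:95413296-95413405. Myb, a regulator of progenitor proliferation, had 7 and 5 at chr10:21135757-21135912 and is named beyond the rule of 3 per list, after its values were seen. Median gene length over the whole stem and progenitor list was 45.2 kb. Over all autosomal protein-coding genes it was 17.5 kb, and over those with a DC-only region within 10 kb it was 35.0 kb. The part of gene length in the count was not tested.

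The other lists had 1 gene or none. Blnk, an adaptor of B cell receptor signalling, had 14 and 16 fragments 0.518 kb away (chr19:40994739-40994912), 1 of 15 B lymphoid genes and a case where DC replicate 2 was the higher. Slc4a1, the band 3 anion exchanger of red cells, had 7 and 4 (1 of 13 erythroid and megakaryocyte genes), and Prss34, a protease of basophils and mast cells, 10 and 5 at 2.94 kb (1 of 10). No gene of the T and NK list (0 of 15) had one.

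Lists of other tissues gave similar counts. Gfap, the astrocyte intermediate filament, was 6.08 kb from a region with 8 and 16 fragments (1 of 20 non-haematopoietic genes). That region overlapped the promoter window of another gene, Ccdc103. Ywhaz, a 14-3-3 adaptor, had 12 and 7 (1 of 13 housekeeping genes). The regions at Slc4a1, Gfap, Ly6d, Erg and Myb were so low in DC replicate 1 that their scaled heights would not reach a call in WT replicate 1 and DE replicate 1. The absence of a call there was therefore not informative for these 5 genes at this depth.

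Of 20661 autosomal protein-coding genes, 1299 had a DC-only region within 10 kb and 90 had 2 or more. There were 8 with 3 (Atxn1, Bcl2l1, Filip1, Gas7, Itpr2, Mbnl1, Stpg1 and Susd1). Itpr2, a receptor that releases calcium from intracellular stores, held pileups of 32 and 21 at chr6:146292309-146292532. Its other regions had 16 and 7 and 9 and 6. Bcl2l1, which encodes the survival protein BCL-XL, had regions with 31 and 8 and 11 and 15 inside the gene and 8 and 7 outside. Atxn1 had 25 and 8, 20 and 9 and 9 and 7. In each of these 3 genes, at least 1 region was below 10 fragments in both DC libraries. The 8 genes were singled out after the counts were seen. Their lengths ran from 43.1 kb (Stpg1) to 415 kb (Atxn1), against a median of 17.5 kb over all autosomal protein-coding genes. The part of gene length in these counts was not tested.

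DC-only regions occurred on every autosome, and most had no other DC-only region within 10 kb. Whether they lay closer together or farther apart than an even spread was not tested. Of the autosomal regions called in both DC libraries, between 3.30% (chromosome 19) and 5.36% (chromosome 3) were DC-only. The median distance to the next DC-only region was 291 kb, and 65 (4.43%) had another within 10 kb. WT or DE peaks were much closer: the nearest was a median of 2231.5 bp away, 1250 (85.1%) had one within 10 kb and 284 within 500 bp. A region called in all 6 libraries lay within 10 kb of 665 (45.3%).

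By position, 171 (11.6%, 95% Wilson interval 10.1 to 13.4) were at most 1 kb from the end of a gene, 670 (45.6%, 43.1 to 48.2) were farther inside genes and 627 (42.7%, 40.2 to 45.3) lay in between. Regions called in all 6 libraries lay at gene ends in 25.1%, inside genes in 38.3% and between genes in 36.6%. Over all autosomal regions the shares were 9.12%, 43.3% and 47.6%. The DC-only set thus lay nearer to the whole union than to the shared regions. Wilson intervals cover counting error only, and regions of 1 library are not independent replicates.

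The gene-end share of the DC-only regions was above that of regions called in 1 DC library alone. It was 5.31% among 108136 regions of DC replicate 1 alone and 6.78% among 9321 of DC replicate 2 alone, both outside the interval of 10.1 to 13.4. WT-only regions, chosen in the same way, had 17.1% (14.2 to 20.6) and DE-only regions 10.4% (7.31 to 14.5) at gene ends. The intervals of DC-only and DE-only regions overlapped, and those of DC-only and WT-only regions did not. With no WT or DE peak within 500 bp, 8.87% of the DC-only regions lay at gene ends. That was below the interval of 10.1 to 13.4 and below the 9.12% over all autosomal regions. No test between the sets was made.

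**Figure D3:**
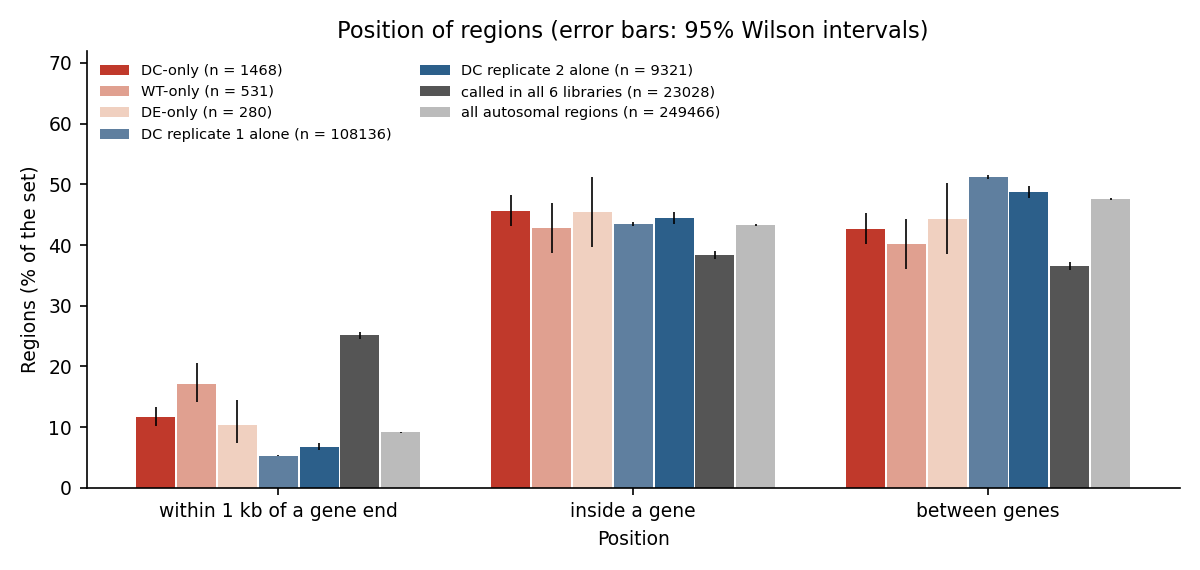
Share of regions at gene ends (at most 1 kb away), within genes or outside them, for 7 sets of autosomal regions, with bars as percent of the set and error bars as 95% Wilson intervals. At gene ends the DC-only bar (11.6%) lies between the regions of a single DC library (5.31% and 6.78%) and regions called in all 6 libraries (25.1%).

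The DC lists were the most unequal in length. DC replicate 1 had 169943 peaks and DC replicate 2 had 50221, against 82080 and 56940 in WT and 52474 and 57441 in DE. Read totals are not given, so depth is unknown. Of the regions of DC replicate 1 that no other genotype had (109604), 1.34% were also called in DC replicate 2. Of those of DC replicate 2 (10789), 13.6% were called in DC replicate 1. The same shares were 1.35% and 4.07% in WT and 2.43% and 2.67% in DE.

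DC replicate 1 also shared private regions with libraries of the other genotypes. Called in DC replicate 1 and WT replicate 1 and nowhere else were 2590 regions, and with WT replicate 2 there were 1821, with DE replicate 1 1746 and with DE replicate 2 2149. As a share of the regions of the second library these were 3.34%, 3.36%, 3.50% and 3.94%, and the 1468 shared with DC replicate 2 were 3.10%. The pair of DC libraries therefore had the lowest count and the lowest share of the 5 pairs that include DC replicate 1. For DC replicate 2 paired with a library other than DC replicate 1, the counts were 171 with WT replicate 1, 478 with WT replicate 2, 118 with DE replicate 1 and 459 with DE replicate 2. The part of list length in the number of DC-only regions was not tested.

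**Figure D4:**
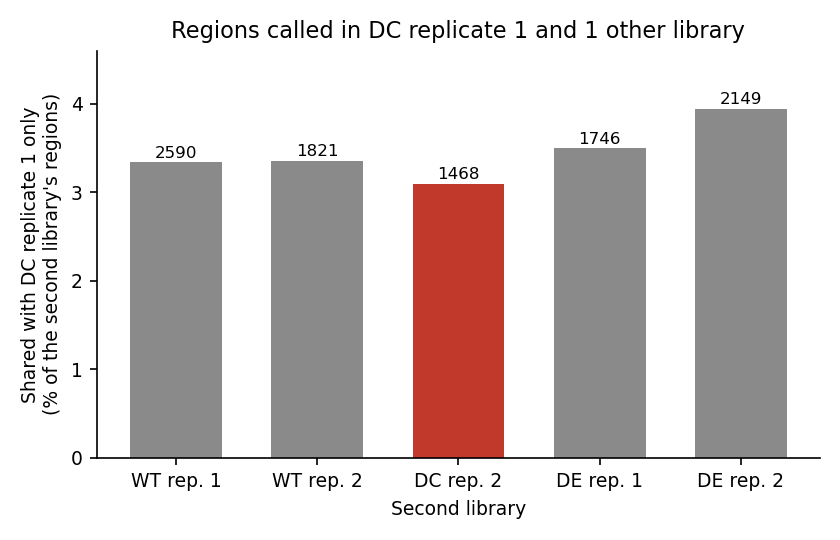
Autosomal regions called in DC replicate 1 and exactly 1 other library, as percent of the second library's regions, with the counts above the bars. The bar for DC replicate 2 (1468 regions, 3.10%) is the DC-only set and is the lowest of the 5.

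The heights in DC, which the rule used, were set beside the heights that a call needs in the other libraries, as a description. The batch-matched DC pileup, scaled by the median log2 difference over regions called in all 6 libraries, had a median of 8.57 in WT replicate 1, 11.7 in WT replicate 2, 10.3 in DE replicate 1 and 10.8 in DE replicate 2. The pileups needed there at the lowest background were 6, 5, 7 and 4. In all 4 libraries 1134 regions (77.2%) reached the needed height with this scaling. The figure assumes the lowest background everywhere, and a higher background would lower it. It also depends on the scaling: scaling by the lowest background gave 1438 (98.0%). With the scaling by shared regions, 313 (21.3%) stood at 2 times the needed height. The 334 that did not reach the needed height with that scaling fell short in WT replicate 1 and DE replicate 1, where no call was not informative.

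The surroundings of DC-only regions were examined in regions that the rule did not choose. Some adjoined them: 104 DC-only regions had a region called in all 6 libraries within 500 bp, with a smallest gap of 1 bp. Whether such neighbours share signal with the DC-only region was not tested. Of 23480 regions called in all 6 libraries, 2153 lay within 25 kb of a DC-only region. Without a batch term, limma with Benjamini-Hochberg adjustment called 0 of them higher and 0 lower in DC than in WT at an adjusted p of 0.05, as it did over all 23480 regions (0% in each direction). At an unadjusted p under 0.05 were 181 (8.41%), against 1871 (7.97%) of all. The median log2 difference of scaled pileup was 0.03 beside DC-only regions and -0.02 over all. Within batches it was 0.04 and 0.02 beside them and -0.01 and -0.02 over all.

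The labels pair the libraries by batch, and with batch as a term the calls differed. Of the 2153 neighbouring regions, 87 (4.04%) were then higher in DC than in WT and 19 (0.882%) lower, where over all 23480 regions 736 (3.13%) were higher and 273 (1.16%) lower. At an unadjusted p under 0.05 in this fit were 369 neighbouring regions (17.1%), against 3976 (16.9%) of all. Within 10 kb, 56 of 1083 (5.17%) were higher and 10 (0.923%) lower. No test between the neighbouring regions and the rest was made. These counts moved with single libraries. Without DC replicate 1, 21 were higher (0.975%, against 0.733% of all regions) and 2 lower. Without DC replicate 2, 27 were higher (1.25% against 0.618%) and 1 lower. Without WT replicate 2, 35 were higher (1.63% against 1.24%) and 2 lower, and without WT replicate 1, 67 (3.11% against 2.41%) and 11. Without DE replicate 2, which shares the estimate of spread, 101 were higher (4.69% against 3.67%) and 29 lower. The share higher was above that of all regions in each of these 5 fits, by amounts that were not tested. The fits reuse the same libraries and neighbouring regions, so they are not separate observations. The calls that chose the DC-only regions also came from these libraries.

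Against DE, a comparison that shares the DC libraries with the one against WT, limma without a batch term called 0 neighbouring regions higher and 0 lower (0% of all 23480 in each direction). At an unadjusted p under 0.05 were 44 (2.04%), against 554 (2.36%) of all. With batch as a term 0 were higher and 1 lower, where over all regions 2 (0.00852%) were higher and 5 (0.0213%) lower. The median log2 difference was 0.03 beside DC-only regions and -0.0029 over all. In both comparisons the median beside DC-only regions was thus slightly above that of all shared regions, and no test of that gap was made.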

How the data were processed

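Each anti-C/EBPα library has 1 deposited peak list, made with MACS2 2.2.9.1 on build mm10, and Trimmomatic, Bowtie2, SAMtools and HOMER are also named, per the submitters' processing notes; their settings are not given in the sources used here. For each peak the authors give a score, a fold enrichment at the summit (a ratio), a −log10 p-value, a −log10 q-value and the offset of the summit. The pileup k and local background λ were recovered from the deposited fold, (k + 1)/(λ + 1), and the Poisson p-value; at least 99.9962% of peaks per library had a whole-number solution within 0.02% of the −log10 p, and up to 503 per library had 2 possible solutions. Peaks were joined at 1 bp overlap (Python 3.11.15, pandas 2.3.3, numpy 2.4.6, scipy 1.17.1). To scale libraries, the median log2 difference of pileup was taken over the 23480 regions that all 6 called. Genotypes were compared on log2 pileups of these regions in R 4.3.3 with limma 3.58.1 (variance trend, Benjamini-Hochberg adjustment, 0.05), without a batch term and with one; the code was tested on simulated data. Batch pairs the libraries by the labels, and batch deviations correlated with r of 0.546 (WT and DC), 0.413 (WT and DE) and 0.383 (DC and DE) across regions, which are not replicates; limma p-values measure only the spread between these libraries. Promoter and gene positions came from RefSeq tables of GRCm38.p6; no genome sequence was used, so regions outside promoters have no sequence. Named were the 15 regions whose worse −log10 q rank in the DC lists was best, the next 5 within 1 kb of a gene end, up to 3 regions per gene list within 10 kb of a listed gene, and any in the Zeb2 locus. Of 194 listed genes 189 matched autosomal genes; X-linked ones were left out. The regions and lists were chosen with earlier results of these data known.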

Additional observations from a re-analysis of the deposited data

How the results depend on the processing

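The files give no read totals, so what depth limits was not measured; DC replicate 1 has the longest list, and each genotype has 2 libraries. The number of DC-only regions stayed within 1.5 times of 1468 with stricter q in DC (1401 at 0.05, 1167 at 0.01), no WT or DE peak within 500 bp (1184), 50% overlap of the DC peaks (1280), X and Y included (1502) and, chosen after seeing the data, without regions of high local background (1409). It was 117740 from batch 1 only and 12059 from batch 2 only. Leaving out 1 library gave 1782 to 109604, with 2532 without DE replicate 2, 10789 without DC replicate 1 and 109604 without DC replicate 2. Callable regions numbered 1438 with scaling by the lowest background and 313 at 2 times the needed pileup. With gene ends widened to 5 kb the position shares were 32.1% near an end, 33.99% inside and 33.9% between genes, and with no WT or DE peak within 500 bp 8.87% lay near an end. Listed genes with a region were 8 at 1 kb and 39 at 50 kb. For neighbouring shared regions, the replicate block (batch as a term) gave 87 higher and 19 lower against WT and 1 lower against DE, in place of 0. Chosen after seeing the data, leaving out 1 library under the block gave 21 to 101 higher and 1 to 29 lower against WT. Without the block it gave 0 to 1 higher, with medians of -0.00908 to 0.0861 against WT and -0.00359 to 0.0641 against DE. At 100 kb the medians were -0.0037 and 0.0093, and with scaling by the lowest background 0.888 and 0.335, where the median of all regions moved to 0.839 and 0.302. The cause of these moves was not tested.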

Other observations

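Within 1 kb of a DC-only region lay 3 microRNA genes, Mirlet7i, Mir5104 and Mir8096. The share over all microRNA genes is not given here, so this count is not a result about microRNA genes. Mirlet7i, a hairpin of the let-7 family, had 13 fragments in DC replicate 1 and 9 in DC replicate 2 at chr10:122986016-122986249. Mir5104 overlapped a region with 10 and 4 fragments at chr10:7836301-7836501, and Mir8096 was near one with 18 and 5 at chr1:85752368-85752557.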
